A study of Mus musculus with 29 samples.

Results

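The genes described here are 10 core regulators of the G1 phase of the cell cycle, chosen by their role and not by a threshold on their values: the D-type cyclins Ccnd1, Ccnd2 and Ccnd3, the E-type cyclins Ccne1 and Ccne2, the cyclin-dependent kinase (CDK) inhibitors Cdkn1b, Cdkn2a and Cdkn2b, and Rb1 and E2f1. All 10 were found among the 35199 genes of each table used. The clearest differences were in the E-type cyclins, which fell in the luminal domain of mixed lesions relative to basal tumors. Ccnd1, Ccne2 and Rb1 lay lower in every luminal tumor than in every basal tumor, where 21.5% of all genes tested had groups without overlap. Cdkn2b lay higher in every luminal tumor, but the highest basal and the lowest luminal tumor were nearly equal, at 3892 and 3906 normalized counts. Cdkn1b, as 1 of the 9 genes tested there, lay lower in every mutant library than in every control 4 days after induction, beside 9.18% of all genes without overlap. These differences of luminal tumors and of the sorted cells did not pass the threshold over all genes tested. Ccne1 and Ccne2 passed it in the luminal domain with all libraries in the fit, but Ccne1 in 0 and Ccne2 in 1 of the 6 fits that left out 1 library.

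In G1, D-type cyclins bind the kinases Cdk4 and Cdk6 in response to growth signals, and these complexes begin to phosphorylate the retinoblastoma protein Rb1. Unphosphorylated Rb1 holds E2F transcription factors in an inactive state. Once released, E2F factors switch on the genes of DNA replication and the E-type cyclins, which bind Cdk2 and complete the phosphorylation of Rb1. Cdkn2b (p15Ink4b) and the p16Ink4a product of Cdkn2a block Cdk4 and Cdk6, Cdkn1b (p27Kip1) blocks cyclin E and Cdk2, and the second product of Cdkn2a, p19Arf, acts on Mdm2 in the p53 pathway. Alterations of CDKN2A and of RB1 are common in human urothelial carcinoma.

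RefSeq promoter windows of assembly GRCm38.p6 were matched by symbol for 6 of the 10 genes, giving 8 start sites. The 250 bases before 3 of these start sites are shown, those of Ccne1, an E-type cyclin that fell in the luminal domain, and of Cdkn2b and Cdkn2a, neighbouring inhibitor genes on chromosome 4 that lie 11.7 kb apart. The windows were searched on both strands for the E2F core motif TTGGCGC, its variant TTCCCGC, a further variant TTGCCGC and the variant TTCGCGC, and capitals mark a match. All 3 lie on the minus strand, at chr7:38107491-38107740 for Ccne1, chr4:89311033-89311282 for Cdkn2b and chr4:89294620-89294869 for the upstream start site of Cdkn2a, from which the Arf transcript begins.
Ccne1: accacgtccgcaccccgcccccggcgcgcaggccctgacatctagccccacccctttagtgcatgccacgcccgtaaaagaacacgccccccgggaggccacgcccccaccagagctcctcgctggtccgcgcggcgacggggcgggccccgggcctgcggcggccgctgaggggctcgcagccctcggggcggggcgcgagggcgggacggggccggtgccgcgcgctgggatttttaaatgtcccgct
Cdkn2b: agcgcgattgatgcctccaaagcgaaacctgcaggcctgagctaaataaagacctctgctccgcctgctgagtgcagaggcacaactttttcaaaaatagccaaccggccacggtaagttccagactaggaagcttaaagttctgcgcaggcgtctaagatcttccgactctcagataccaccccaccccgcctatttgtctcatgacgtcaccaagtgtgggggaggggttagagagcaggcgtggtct
Cdkn2a: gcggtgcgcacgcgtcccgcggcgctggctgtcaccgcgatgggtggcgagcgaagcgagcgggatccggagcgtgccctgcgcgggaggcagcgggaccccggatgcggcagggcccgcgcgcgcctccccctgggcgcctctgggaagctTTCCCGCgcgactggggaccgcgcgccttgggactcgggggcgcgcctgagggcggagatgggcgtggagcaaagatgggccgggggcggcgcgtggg
One of the 8 windows held a match, TTCCCGC, 98 bases before the Arf start site. The E2f1 window, chr2:154569427-154569676, lies inside the gene, which reaches to position 154569892 on the minus strand. The bases before that outer end of E2f1 were not searched. Over all 32851 promoter windows of the same length, 7.89% held at least 1 match. A match describes letters and not a binding site, and a window without one says only that these letters are not in it.

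Basal cells of the urothelium, the epithelium of the bladder, were sorted 4 days after tamoxifen, giving 4 control and 5 K5VP16;Pparg mutant samples, none of them treated with BBN. The mutants are labelled K5VP16;Pparg+/- and carry Krt5CreERT2, which acts in cells that use the Krt5 promoter, and an inducible VP16;Pparg transgene, a constitutively active fusion of the nuclear receptor Pparg with the VP16 activation domain. By their labels the controls are wild type, and in the study's methods the sorted controls are K5;mTmG, and cells were sorted for green fluorescence. Tamoxifen injections were given to mice of 8 to 12 weeks. The tumor libraries were made from cells taken by laser capture from mice treated with BBN, N-butyl-N-(4-hydroxybutyl) nitrosamine, a bladder carcinogen, at 0.05% in the drinking water. A label field gives 5 months of BBN for these mice. In the study they had 1 month of BBN before tamoxifen, which was given into the bladder, and the 4 months of the sample titles are the time from tamoxifen to capture. They comprised 3 basal tumors of controls (listed as wild type, in the study VP16;Pparg fl/fl or K5;mTmG), and, from mutants, 3 luminal tumors and 2 sets of captures from lesions with both kinds of cells, namely 3 of the luminal and 3 of the basal-like domain. The labels do not tie captured regions to animals, so p-values would be too small if regions of 1 group shared a mouse. Between the domains, where 1 mouse may have given both kinds of region, an unpaired fit could instead make them too large. Libraries are numbered here within each group in the order of the columns of the tables. In all, 21 of the 29 samples of the series were used.

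Values are the authors' normalized counts, made by dividing estimated counts by factors that differ between genes and libraries, and each table was normalized on its own, so levels are compared within a table. They summed to between 36520200 and 41435700 per library in the sorted cells and between 41697200 and 53904700 in the tumor tables. They are not scaled to gene length, and levels are therefore not compared between genes. Luminal urothelial markers (Pparg, the uroplakins and others) were higher in luminal tumors and in luminal domains for 10 of 10 genes, 5 and 3 of them called. Basal and luminal urothelial markers were both present in the sorted cells. Among them, the summed level of 4 Y-linked genes was 404, 9030.2, 9177 and 9046 in controls 1 to 4 and 338 to 395 in the mutants, so that control 1 is the sole control comparable with the mutants in this respect. All 9 fibroblast markers had positive log2 fold changes in the 4-day mutants (1 called, Lum). Their sums were 12174 to 86629 in controls and 31842 to 224748 in mutants. Smooth muscle markers were positive for 6 of 6 (0 called), with sums of 174 to 1042 and 410.0 to 2719. Leukocyte markers were positive for 5 of the 11 tested (0 called), with sums of 2292 to 4025 in controls and 1630 to 24494 in mutants. In the tumors, all 9 fibroblast markers had negative log2 fold changes in luminal tumors (5 called), with sums of 47328 to 85538 in basal and 227 to 17675 in luminal tumors. For 12 leukocyte markers tested, 11 were negative and 0 called, with sums of 43645 to 151607 and 1148 to 25572. Smooth muscle markers were negative for 6 of 6 (3 called), with sums of 6009.9 to 51208 and 149.6 to 1254. Their part in the results that follow was not tested. In bulk samples, fewer cells of a type and less RNA per cell cannot be told apart.

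For each comparison, limma was fitted to log2(normalized count + 1) over all genes with at least 10 normalized counts in as many libraries as the smaller group holds. A gene is called where its p, adjusted over all genes tested by the Benjamini-Hochberg method, was under 0.05. All 10 genes passed the filter in the tumor tables and 9 in the sorted cells, Cdkn2a being too low there. At 4 days 0 of the 9 genes were called, beside 2.85% of all genes tested, and in 1 of them (Cdkn1b) the groups did not overlap, beside 9.18% of all genes. In luminal tumors 0 of 10 were called, beside 2.20% of all genes, and in 4 (Ccnd1, Ccne2, Cdkn2b and Rb1) the groups did not overlap, beside 21.5%. In the luminal domain 2 of 10 (Ccne1 and Ccne2) were called, both lower than in basal tumors, beside 2.53% of all genes, 0.824% for lower calls alone, and in 5 the groups did not overlap, beside 26.8%. Between the domains 0 of 10 were called, beside 0% of all genes, and in 3 (Ccne2, Cdkn2b and E2f1) the groups did not overlap, beside 10.8%. In that comparison limma called 0 of 14874 genes, 757 had an unadjusted p under 0.05, and 20 genes, none of the 10, were called without a trend in eBayes. The unadjusted p was under 0.05 for 3418, 2820 and 3072 genes in the first 3 comparisons. Both comparisons with basal tumors share the basal tumor libraries, and the luminal domain libraries enter the last 2 comparisons, 2 of them also the fit of the luminal tumors, so these comparisons are not independent.

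**Figure D1:**
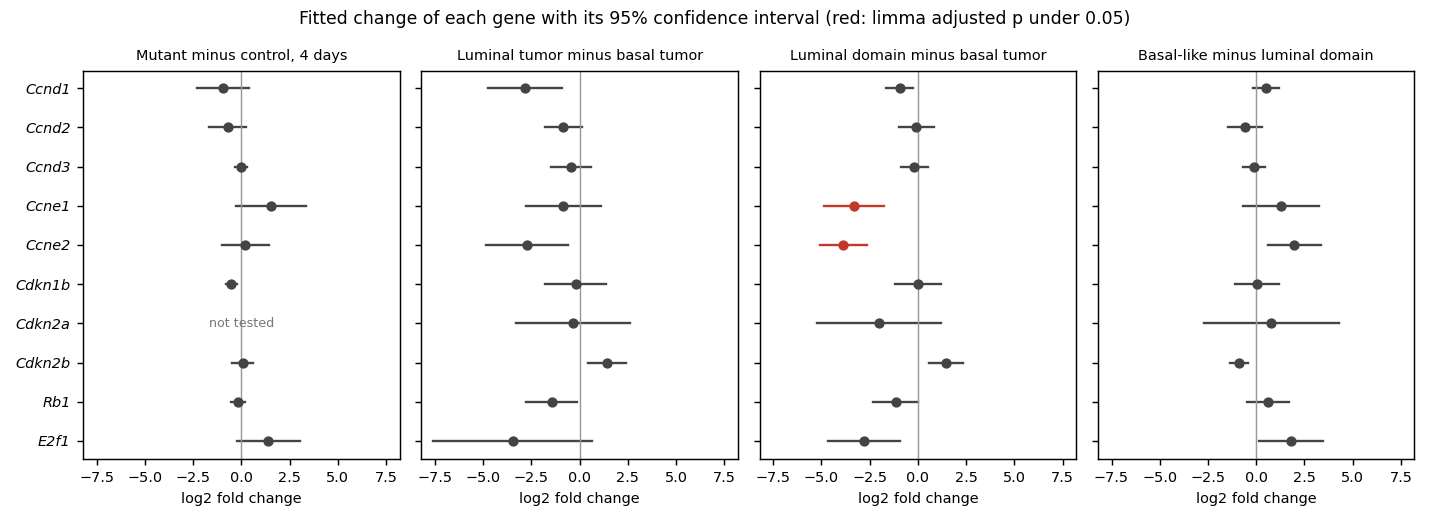
Points give the log2 fold change of each of the 10 genes in the 4 comparisons and bars its 95% confidence interval, from limma on log2(normalized count + 1), with red for an adjusted p under 0.05. Ccne1 and Ccne2 in the luminal domain, at -3.31 and -3.86, are the 2 red points.

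Among the D-type cyclins, Ccnd1, the partner of Cdk4 and Cdk6 that growth factor signals induce, was at 9306, 13046 and 9432 normalized counts in basal tumors 1 to 3 and at 782, 508 and 7933 in luminal tumors 1 to 3. Luminal tumors 1 and 2 lay far below every basal tumor, and luminal tumor 3 close below them. Its log2 fold change of -2.83 (SE 0.86) was not called (limma adjusted p = 0.129). Without luminal tumor 3 it was -4.05 and was called (limma adjusted p = 0.00504), while the other 7 fits that left out 1 library made no call, down to -2.07 without luminal tumor 2 (limma adjusted p = 0.348). With the 5 luminal libraries as 1 group it was also -2.07 (limma adjusted p = 0.217). In the table of luminal domains Ccnd1 was at 9699.8, 13332 and 9719.9 in basal tumors and at 4500.1, 7773 and 4967 in the domains, again without overlap, a log2 fold change of -0.95 (SE 0.30, limma adjusted p = 0.136). Basal-like domains held 6020.2, 8890.4 and 9825, overlapping with the 4558, 7974 and 5090.1 of luminal domains in their own table (log2 fold change 0.50, limma adjusted p = 0.935). In the table that holds them with the luminal tumors, luminal domains 1 and 2 were at 4255 and 7256, above luminal tumors 1 and 2 and below luminal tumor 3.

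In the sorted cells Ccnd1 was at 5991, 3699.8, 1762 and 2625 in controls 1 to 4 and at 3838, 4481, 691, 845 and 1234 in mutants 1 to 5. Mutants 1 and 2 lay within the range of the controls, and mutants 3 to 5 below all of them. This gave a log2 fold change of -0.94 (SE 0.60, limma adjusted p = 0.408). Ccnd2, another D-type cyclin, followed a like order, with 29259, 19754, 10935 and 11936 in controls and 19646, 16414, 5289, 8558 and 7182 in mutants (log2 fold change -0.72, limma adjusted p = 0.374). In both genes control 1 was the highest control, and mutants 1 and 2 the highest mutants. Ccnd3 varied least of the 3, 3699 to 4392 in controls against 3256 to 5194 in mutants, and its log2 fold change of -0.02 had a 95% interval of -0.32 to 0.28.

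Neither Ccnd2 nor Ccnd3 separated the tumor groups. Ccnd2 was at 19513, 37497 and 47049 in basal tumors and at 12115, 19349.7 and 24846 in luminal tumors (log2 fold change -0.85, SE 0.42, limma adjusted p = 0.323). Its log2 fold change in the luminal domain was -0.10, with a 95% interval of -1.01 to 0.81, and turned to values of up to 0.17 in 4 of the 6 fits that left out 1 library. For Ccnd3 the 95% intervals were -1.49 to 0.59 in luminal tumors, -0.89 to 0.51 in the luminal domain and -0.70 to 0.44 between the domains, each of which includes 0. Basal-like domains held 15661, 37599 and 16715 of Ccnd2 against 27288, 45676 and 27154 in luminal domains, with overlap.

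**Figure D2:**
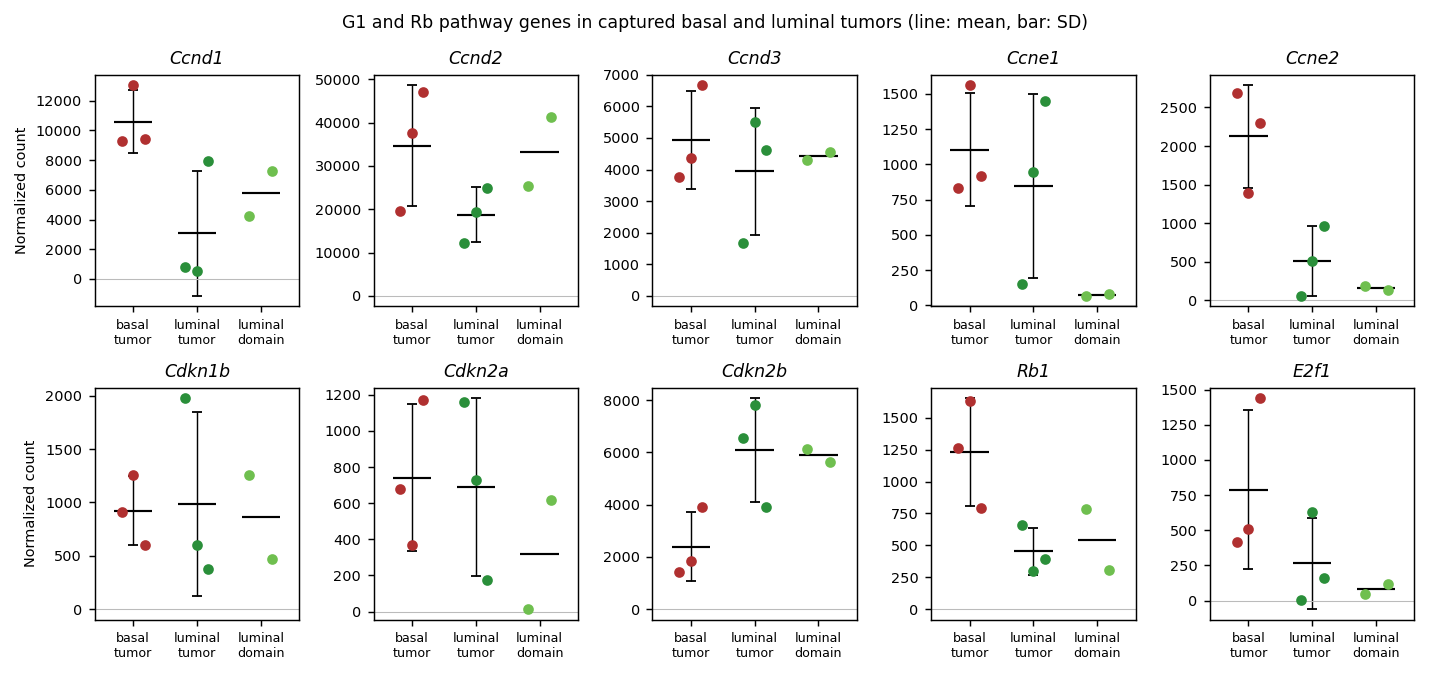
Each panel shows 1 gene, with the normalized count on the vertical axis and a point for each of 3 basal tumors, 3 luminal tumors and the 2 luminal domains of the same table. Lines give group means and bars the SD of groups of 3. Cdkn2b is above all basal tumors in each luminal library, but luminal tumor 3 and basal tumor 3 are nearly equal (3906 and 3892). Ccne1 is low in both domains and spread from 151 to 1446 in luminal tumors.

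The E-type cyclins Ccne1 and Ccne2, activators of Cdk2 at the entry into S phase, were the 2 called genes. In the table of luminal domains Ccne1 was at 866, 1592 and 942 normalized counts in basal tumors and at 71.1, 88.7 and 204 in luminal domains 1 to 3. Every domain lay several fold below every basal tumor, the group means being 1133 and 121, a ratio of 9.35. Its log2 fold change was -3.31 (SE 0.67, limma adjusted p = 0.0480). Ccne2 was at 2719, 1381 and 2299 in basal tumors and at 184, 133 and 112 in the domains. Its means of 2133 and 143 differ by a ratio of 14.9, the log2 fold change being -3.86 (SE 0.52, limma adjusted p = 0.0239). Ccne1 was no longer called in any of the 6 fits that left out 1 library (limma adjusted p from 0.0920 to 0.156), nor without the filter (0.0690) or a trend (0.0713). Ccne2 was called under each of the 5 alternative settings, but among the 6 fits that left out 1 library it was called in 1, that without basal tumor 2 (limma adjusted p from 0.0238 to 0.119). In this table all 9 fibroblast markers had negative log2 fold changes in the luminal domain (2 called), with sums of 48857 to 89719 in basal tumors and 5691 to 32181 in the domains, as did 6 of 6 smooth muscle markers (3 called), with sums of 6298 to 57231 and 1430.3 to 1911 and Cnn1 at 0 in the domains. Of the 12 leukocyte markers tested 8 were negative and 0 called, with sums of 45335 to 159366 and 19266 to 48460, and Cd79a was at 0 in the domains. Their part in the fall of the E-type cyclins was not tested.

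Luminal tumors differed among themselves in both E-type cyclins. Ccne1 was at 832, 1562 and 916 in basal tumors and at 151, 946 and 1446 in luminal tumors, of which tumors 2 and 3 lay within the range of the basal tumors (log2 fold change -0.84, SE 0.86, limma adjusted p = 0.650). This value was 0.14 without luminal tumor 1, -1.48 without luminal tumor 3 and -2.03 with the 5 luminal libraries as 1 group, and was not called in any of these fits (limma adjusted p from 0.302 to 0.941). In the same table luminal domains 1 and 2 held 67.4 and 83.0, below all 3 luminal tumors. Ccne2 was at 2688, 1392 and 2298 in basal tumors and at 58.6, 505 and 966 in luminal tumors, without overlap (log2 fold change -2.74, SE 0.95, limma adjusted p = 0.174). With 1 library left out, its log2 fold change lay between -3.56 and -1.55 and was not called (limma adjusted p from 0.0664 to 0.380). For both genes tumor 1 was the lowest and tumor 3 the highest of the luminal tumors.

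Between the domains of mixed lesions, Ccne2 was at 216, 158 and 133 in luminal and at 1081, 708 and 364 in basal-like domains, every basal-like domain being higher. The log2 fold change of 1.97 (SE 0.60) was not called (limma adjusted p = 0.871). Ccne1 was at 71.4, 90.4 and 207 in luminal domains and at 297, 591 and 114 in basal-like domains, where basal-like domain 3 lay within the luminal range (log2 fold change 1.29, limma adjusted p = 0.935). Fibroblast markers were positive for 8 of 9 and leukocyte markers for 7 of 12 in basal-like domains, 0 of them called. Fibroblast sums were 5916 to 33210 in luminal and 15107 to 105466 in basal-like domains. Smooth muscle markers were positive for 4 of the 4 tested (0 called). Their sums of 1440 to 1921 in luminal and 1929 to 7195 in basal-like domains did not overlap. The part of these cells in the differences between the domains was not tested. The labels do not say which luminal and basal-like domains come from the same lesion.

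At 4 days Ccne1 was at 84.6, 40.2, 25.4 and 30.3 in controls and at 734, 225, 44.3, 84.4 and 39.1 in mutants. Mutants 1 and 2 stood above every control, and mutants 3 to 5 lay within the control range. This gave a log2 fold change of 1.55 (SE 0.82, limma adjusted p = 0.316), which was 0.90 without mutant 1. For Ccne2, with 156, 96.8, 203 and 86.4 in controls and 486, 218, 104, 96.5 and 65.4 in mutants, the log2 fold change of 0.21 had no stable sign, at -0.07 in quantile-normalized values and -0.06 in the smaller deposited table of 3 against 3 libraries.

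Among the CDK inhibitors, Cdkn2b, an inhibitor of Cdk4 and Cdk6 that transforming growth factor beta induces, was at 1439, 1847 and 3892 normalized counts in basal tumors and at 6535, 7803 and 3906 in luminal tumors. The groups met but did not overlap, basal tumor 3 and luminal tumor 3 being nearly equal. The fitted log2 difference was 1.42 (SE 0.43, limma adjusted p = 0.129). In the luminal domain Cdkn2b was at 6542, 6108 and 5947, above the 1514, 1905 and 4048 of basal tumors, a log2 fold change of 1.45 (SE 0.39, limma adjusted p = 0.0961). Without basal tumor 3 this was 1.87 and was called (limma adjusted p = 0.0474), and the other 5 fits that left out 1 library made no call (1.16 to 1.48, limma adjusted p up to 0.256). Within mixed lesions Cdkn2b was at 6581, 6223 and 6054 in luminal and at 3368, 3128 and 3611 in basal-like domains. Both groups were narrow and apart, with a log2 fold change of -0.90 (SE 0.20) that had a limma adjusted p of 0.651 over a table with no call, and lay between -0.95 and -0.85 whichever library was left out. At 4 days Cdkn2b overlapped between groups, at 2657, 2363, 1595 and 1439.8 in controls and 2608, 2783, 1741, 1409 and 2022 in mutants (log2 fold change 0.07, 95% interval -0.47 to 0.61).

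Cdkn2a, whose row sums the transcripts of p16Ink4a and p19Arf, was listed at 0 in 7 of the 9 sorted libraries and at 0.949 in control 3 and 2.44 in mutant 1, and was not tested there. In the tumors it was detected in every library, at 680.0, 370.3 and 1174 in basal and 1159, 727 and 176 in luminal tumors, with wide overlap (log2 fold change -0.33, 95% interval -3.29 to 2.63). Luminal domain 1 stood apart at 14.2 in its table with basal tumors, where domains 2 and 3 held 666 and 475 and basal tumors 712, 380.1 and 1215. The log2 fold change in the luminal domain was -2.03 (SE 1.39, limma adjusted p = 0.458) and moved to -0.29 without that library. Among basal-like domains, domain 1 was likewise the lowest, at 80.4, 478 and 623 in domains 1 to 3 against 14.0, 668 and 475 in luminal domains (log2 fold change 0.78, limma adjusted p = 0.985). Without luminal domain 1 this value was -0.96. The spread of Cdkn2a over luminal domains, a ratio of 47.6 between the highest and the lowest, compares with 1.09 for Cdkn2b, the neighbouring gene.

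**Figure D3:**
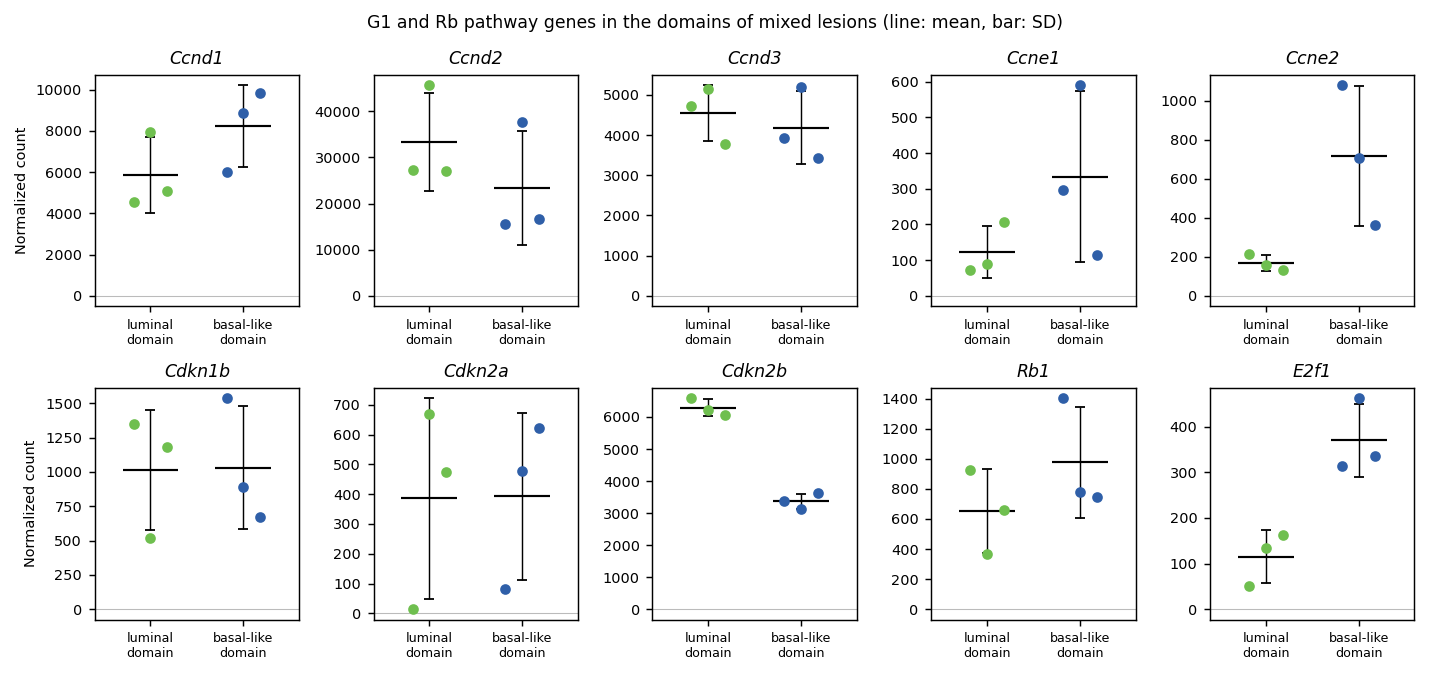
Each panel shows 1 gene, with the normalized count on the vertical axis and a point for each of 3 luminal and 3 basal-like domains of mixed lesions. Lines give group means and bars the SD. Ccne2 and E2f1 lie higher and Cdkn2b lower in every basal-like domain, and Cdkn2a spreads from 14.0 to 668 within the luminal domains.

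Cdkn1b, the inhibitor p27Kip1 of cyclin E and Cdk2, was at 689.9, 859, 843 and 714 in sorted controls 1 to 4 and at 496, 557, 534, 618 and 487 in mutants 1 to 5. Every mutant lay below every control, control 1 included, by a small step. Its log2 fold change was -0.53 (SE 0.13, 95% interval -0.81 to -0.25, limma adjusted p = 0.0562), just over the threshold. It was called by limma in quantile-normalized values (adjusted p = 0.0356) and after upper-quartile scaling (adjusted p = 0.0478), and in none of the 9 fits that left out 1 library (adjusted p from 0.0559 to 0.162). In the tumors the groups overlapped, with 914, 1253 and 604 in basal and 1975, 601 and 379 in luminal tumors, the latter spanning a ratio of 5.22. The log2 fold changes there were -0.21 in luminal tumors, 0.01 in the luminal domain and 0.05 between the domains, all within their standard errors, and the value of the luminal domain turned negative under both scalings.

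**Figure D4:**
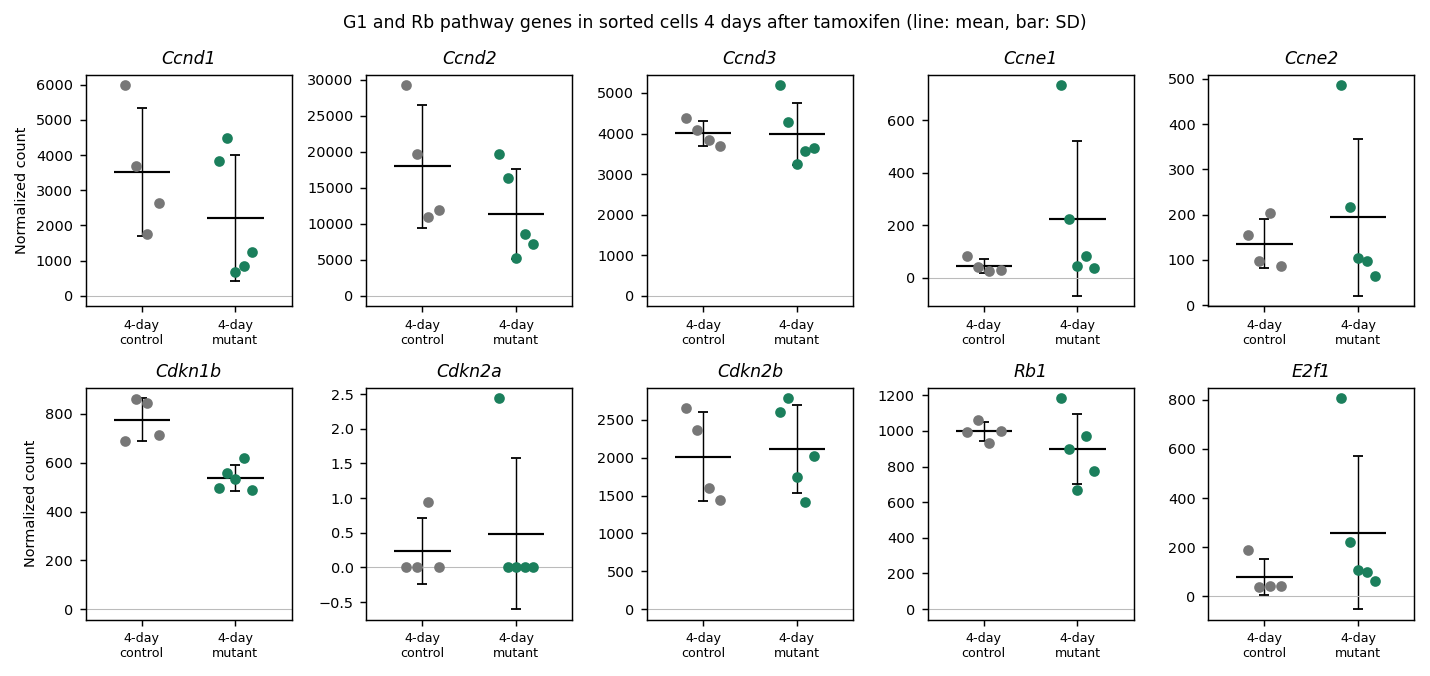
Each panel shows 1 gene, with the normalized count on the vertical axis and a point for each of 4 control and 5 mutant libraries of cells sorted 4 days after tamoxifen. Lines give group means and bars the SD. Cdkn1b is the gene whose groups do not overlap, and mutant 1 is the highest point for Ccne1, Ccne2 and E2f1.

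Rb1, the pocket protein that holds E2F factors, was at 1263, 1633 and 789.6 in basal tumors and at 659.5, 303 and 393 in luminal tumors, without overlap. The log2 fold change of -1.46 (SE 0.59) was not called (limma adjusted p = 0.232). In the luminal domain Rb1 was at 933, 367 and 659.9 against 1479, 1876 and 914 in basal tumors, where domain 1 was just above basal tumor 3 (log2 fold change -1.16, limma adjusted p = 0.243). Basal-like domains held 1402, 777 and 748 and luminal domains 925, 368 and 662 (log2 fold change 0.62, limma adjusted p = 0.948). At 4 days the groups overlapped, with Rb1 at 933.8 to 1062 in controls and 669.6 to 1183 in mutants, and its log2 fold change of -0.17 had a 95% interval of -0.53 to 0.18. The smaller table holds 3 of these controls, without control 1, and 3 of these mutants, so it is not independent. There Rb1 was at 974, 858 and 919.8 against 833, 614 and 711, without overlap (log2 fold change -0.36, limma adjusted p = 0.340). The share of all genes without overlap was not taken in it. Its controls had Y-linked sums of 8130 to 8294, against 305 to 356 in its mutants.

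E2f1, an activator of the genes of S phase, was at 418, 506 and 1437 in basal tumors and at 1.16, 626 and 164 in luminal tumors. Luminal tumor 1 was nearly without it while tumor 2 lay within the basal range, and the log2 fold change of -3.47 had a 95% interval of -7.61 to 0.66 (limma adjusted p = 0.357) and was -1.07 without luminal tumor 1. In the luminal domain E2f1 was at 49.0, 129.6 and 159.5, below the 441, 523 and 1498 of each basal tumor, a log2 fold change of -2.79 (SE 0.81, limma adjusted p = 0.116). Basal-like domains held 313, 462 and 335, each above the 49.6, 133 and 163 of luminal domains (log2 fold change 1.82, SE 0.71, limma adjusted p = 0.935). At 4 days E2f1 was at 189.5, 40.2, 43.7 and 42.6 in controls and at 805, 219.9, 109, 99.7 and 62.6 in mutants. Every mutant was above controls 2 to 4, but control 1 lay above 3 of the mutants, and the log2 fold change was 1.41 (SE 0.74, limma adjusted p = 0.316). It lay between 0.84 and 1.94 with 1 library left out (limma adjusted p from 0.188 to 0.524).

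Of the 10 genes E2f1 had the widest range over the 8 libraries of the tumor table. Among the 5 genes whose log2 levels were most like it there were Rad9a (Pearson r = 0.97) and Rbm38, Map2k5 and Fbxl5 (r = 0.96 each), over 8 libraries that fall into the tumor groups, as a description only.

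A further 37 genes of the pathway were followed as a list. In the sorted cells 20 had positive and 17 negative log2 fold changes, with a median of 0.02 beside 0.00 over all genes tested. E2f2, an activator E2F, rose by 1.27 from 19.0, 14.7, 24.9 and 23.9 to 51.6, 40.8, 56.8, 40.3 and 65.1 (limma adjusted p = 0.0471), and 0 others were called. Of the 9 fits that left out 1 library, 8 did not call it (limma adjusted p up to 0.137), nor did 4 of the 6 alternative settings (up to 0.189). Cdkn1a (p21), an inhibitor of Cdk2 and a target of p53, and Cdkn2c (p18), an inhibitor of Cdk4 and Cdk6, had log2 fold changes of 0.98 and 1.02 (limma adjusted p = 0.165 and 0.276). The kinases themselves lay near 0, at 0.27 for Cdk2, -0.03 for Cdk4 and -0.30 for Cdk6, with limma adjusted p from 0.538 to 0.927.

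In luminal tumors 30 of the 37 pathway genes had negative log2 fold changes and 0 were called, with a median of -0.73 beside -0.11 over all genes tested. E2f2 lay lowest, from 115, 259 and 135 in basal to 1.16, 2.35 and 4.14 in luminal tumors (-5.58, limma adjusted p = 0.0767). Myc, which promotes entry into the cell cycle, was at -1.16 (limma adjusted p = 0.129). Both were without overlap, beside 21.5% of all genes. With the 5 luminal libraries as 1 group limma called both (adjusted p = 0.0369 for E2f2 and 0.0489 for Myc), and E2f2 also with a pseudocount of 5 (0.0391). With so few counts in luminal tumors the log2 fold change of E2f2 depends on the pseudocount and the scaling, at -4.46 with a pseudocount of 5 and -4.27 in quantile-normalized values. In the luminal domain 27 were negative, with a median of -0.58 beside 0.01, and 2 were called. Ccna2, the cyclin A of S phase, fell by 2.65 on the log2 scale (limma adjusted p = 0.0258), and Tbx2, a transcriptional repressor known to repress Cdkn2a and Cdkn1a, rose by 3.35 (limma adjusted p = 0.0329). Of the 6 fits that left out 1 library, 5 did not call Ccna2, and 5 did not call Tbx2. Tbx2 was at 364, 1687 and 526 in basal tumors and at 9922, 5457 and 6374 in luminal domains, all higher. In the same comparison Cdkn1a was at 0.96 (limma adjusted p = 0.345) and Cdkn2a at -2.03 (limma adjusted p = 0.458), neither called. Skp2, which directs the breakdown of the p27Kip1 protein, was at -2.01 (limma adjusted p = 0.156) and Cdk4 at -0.95 (limma adjusted p = 0.196), both without overlap. Myc, at -1.35 (limma adjusted p = 0.0819), and E2f2, at -4.26 (limma adjusted p = 0.174) and listed at 0 in luminal domain 2, also lay lower in every domain than in every basal tumor. Groups without overlap made up 26.8% of all genes tested in that comparison. Between the domains 23 of the 37 genes were positive in the basal-like domain, with a median of 0.23 beside 0.01, and 0 were called. E2f2 was at 16.6, 0 and 38.4 in luminal and at 241, 76.6 and 92.2 in basal-like domains, without overlap, beside 10.8% of all genes (log2 fold change 3.77, limma adjusted p = 0.935). This value lay between 2.19 and 4.84 with 1 library left out and between 2.90 and 3.80 under the alternative settings. For the luminal domain against basal tumors the E2f2 values lay between -5.33 and -2.70 and between -4.37 and -3.37. Rescaling to the upper quartile moved the median over all genes from -0.11 to -0.19 in luminal tumors and from 0.01 to -0.14 in the luminal domain, and quantile normalization moved it to 0.02 in luminal tumors.

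Genes that E2F factors switch on for DNA replication (30 genes) and genes of mitosis (18) were also followed as lists. Their RNA levels do not measure Rb1 phosphorylation or E2F activity. The part of the share of dividing cells and of other cell types in these levels was not tested. In the luminal domain 30 of 30 E2F target genes had negative log2 fold changes, with a median of -1.43, and 5 were called, namely Mcm3, Mcm4 and Mcm7 of the replicative helicase, its loader Cdt1 and Uhrf1. All 18 mitotic genes were negative, with a median of -2.06, and 7 fell by the test, among them the proliferation marker Mki67 (-1.92, limma adjusted p = 0.0461) and Top2a (-2.84, limma adjusted p = 0.0203). For each of these 12 genes, at least 4 of the 6 fits that left out 1 library made no call. In luminal tumors 28 of 30 and 18 of 18 were negative, with medians of -1.16 and -2.21, and 1, Top2a, was called (-2.81, limma adjusted p = 0.0364), but not in 7 of the 8 fits that left out 1 library. The summed level of the mitotic genes was 77077, 44376 and 59989 in basal tumors and 5098, 10851 and 56909.9 in luminal tumors, where tumor 3, the tumor with the highest Ccnd1, Ccne1 and Ccne2 among them, lay within the basal range. Its E2f1, at 164, lay below that of every basal tumor.

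In basal-like domains 28 of 30 E2F target genes and 17 of 18 mitotic genes had positive log2 fold changes relative to luminal domains, with medians of 0.65 and 1.19, and 0 were called. The summed mitotic level was 13877, 11688 and 19951 in luminal and 25762, 49684 and 36880.1 in basal-like domains, without overlap. In the sorted cells 28 of 30 and 18 of 18 were positive, with medians of 0.70 and 2.18, and Bub1b, a kinase of the mitotic checkpoint, was called (3.49, limma adjusted p = 0.0385), but not in 6 of the 9 fits that left out 1 library. The mitotic sum was 2113, 4427, 2109 and 1091 in controls and 29361, 10632, 7524, 6418 and 3717 in mutants. Mutants 1 and 2, the highest here, were also the highest mutants for Ccne1, Ccne2, E2f1, Ccnd1 and Ccnd2.

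**Figure D5:**
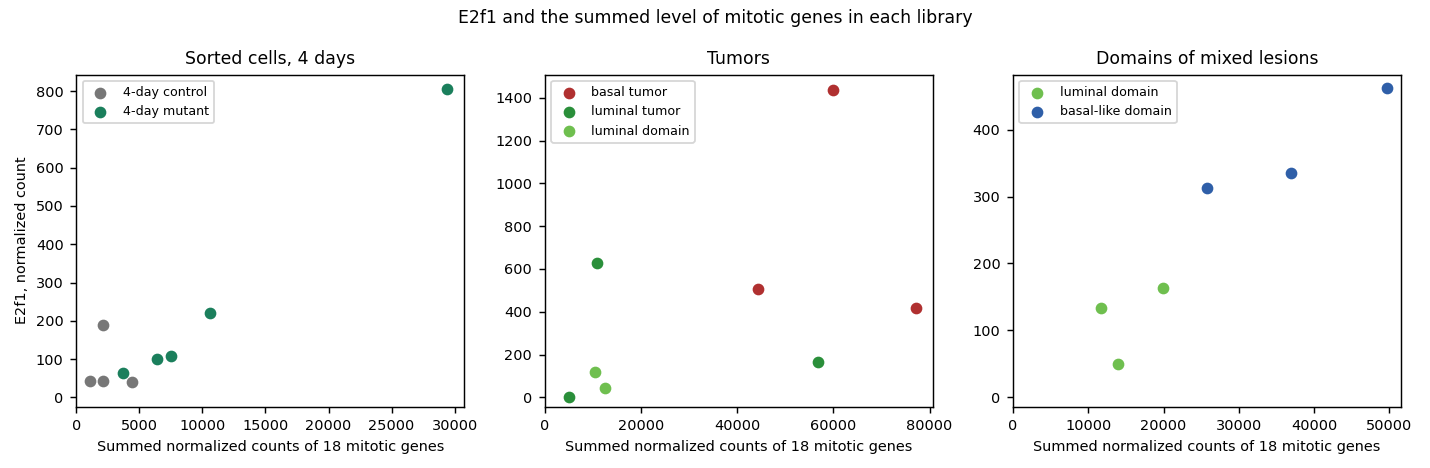
Each point is a library, with the summed normalized count of 18 mitotic genes on the horizontal axis and the normalized count of E2f1 on the vertical axis, for the sorted cells, the tumors and the domains of mixed lesions. Basal-like domains lie above and to the right of luminal domains, and among the sorted cells mutant 1 stands alone at 29361 and 805.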

How the data were processed

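The authors quantified reads with kallisto 0.44.0, summed transcript estimates to genes with tximport and normalized each table with DESeq2 1.18, as given in the methods and the submitters' processing notes. The deposited values are normalized counts, a signal that is not whole reads, so the depth in reads of each library is unknown. Deposited tables of the authors' own fold changes and p-values were not used. The transcript index and its build are not given in the sources used here. A table of 8 columns from mice with or without BBN was not used, because no label ties its columns to a group.

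Columns were tied to groups through the tables that each sample's labels name and the number of libraries on each side of them. Comparisons were fitted with limma 3.58.1 in R 4.3.3 (lmFit, then eBayes with a trend) on log2(value + 1). For luminal tumors, basal tumors, luminal tumors and luminal domains of that table were 3 groups of 1 fit. Scripts were tested on simulated data. Sequences were taken from RefSeq (GRCm38.p6), and figures were drawn with Python 3.11.15 and matplotlib 3.10.9. The 10 genes and all lists were chosen with earlier results of these data known. Named by rule are the 10 genes, 10 fixed pathway genes (Cdk2, Cdk4, Cdk6, Cdkn1a, Cdkn2c, Rbl1, E2f2, E2f3, Skp2 and Myc), called genes of the lists, Mki67 and Mcm2. Some genes that this rule or the marker lists hold, or some of their comparisons, are not reported here. The alternatives were a pseudocount of 5, no filter, no trend, quantile and upper-quartile scaling, the smaller 4-day table, 5 luminal libraries as 1 group, and each library left out in turn. Where nothing says that libraries came from separate animals, p-values measure only the spread between these libraries, which may be technical.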

Additional observations from a re-analysis of the deposited data

Results flagged for a closer look

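In the sorted cells 20 sets of values, each of 1 gene in 1 group, were checked for a library far from the others, and 5 were found, where chance gives about 1 in 20. E2f1 was at 805 in mutant 1, with the next mutant at 219.9, and at 189.5 in control 1, with the next control at 43.7. Ccne1 was at 734 in mutant 1, with the next mutant at 225. Cdkn2a was at 2.44 in mutant 1 and at 0.949 in control 3, where every other library of each group was listed at 0, so that any value above 0 would have been found, and these 2 are not to be read against that chance. Control 1 is the control with the low Y-linked level, and mutant 1 has the highest mitotic sum. What sets these libraries apart was not tested.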

How the results depend on the processing

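Over the 10 genes, 206 of 214 values under the alternative settings and 241 of 281 with 1 library left out kept their direction and their side of the threshold. Only Ccne1 and Ccne2 in the luminal domain were called in the main fits. The other values mostly stayed uncalled, which says little about stability, while the 2 called genes lost their call in 11 fits without 1 library. Over all genes, without a trend limma called 269 genes in the sorted cells, 142 in luminal tumors, 107 in the luminal domain and 20 between the domains. Without the filter it called 52 in luminal tumors and 144 in the luminal domain. The smaller 4-day table gave 147 genes, and the 5 luminal libraries as 1 group gave 513. Of the 10 genes, 1 (Cdkn1b) was called in the sorted cells under each of the scalings, and 1 (Ccne2) in the luminal domain without the filter or without a trend. Quantile normalization gave 270 genes higher and 287 lower in the sorted cells, against 290 and 177. The split was 211 and 137 in the luminal domain after quantile normalization and 179 and 134 after upper-quartile scaling, against 254 and 123.

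Fits that each left out 1 library called 129 to 596 genes in the sorted cells, 3 to 813 in luminal tumors and 0 to 467 in the luminal domain, where 0 were called without luminal domain 1 or 2 and 3 without luminal domain 3. Luminal tumors gave 3 genes without luminal tumor 1 or 2 and 813 without luminal tumor 3. Of the 10 genes, 0 to 1 were called in luminal tumors and 0 to 1 in the luminal domain. Fits without 1 library hold fewer samples, and the cause of each loss was otherwise not tested.

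The following values turned sign. In the sorted cells Ccne2 was at -0.0724 in quantile-normalized values and at -0.0614 in the smaller table, where Cdk4 was at 0.00623. Quantile normalization and upper-quartile scaling gave -0.19 and -0.0525 for Cdkn1a in luminal tumors and 0.0626 and 0.0181 between the domains. They gave -0.0855 and -0.14 for Cdkn1b and -0.0528 and -0.0969 for Cdk6 in the luminal domain. Without 1 library, the sorted cells gave -0.12 to 0.0458 for Ccnd3, -0.11 to 0.0512 for Cdk4, -0.0741 to 0.22 for Cdkn2b, -0.21 to 0.14 for Myc and -0.22 to 0.50 for Ccne2. Luminal tumors gave -0.42 to 0.38 for Cdkn1a, -0.89 to 0.30 for Cdkn1b, -0.89 to 0.46 for Cdkn2a, -0.78 to 0.0783 for Ccnd3, -1.48 to 0.14 for Ccne1 and -0.75 to 0.18 for Cdk6. The luminal domain gave -0.97 to 0.0703 for Cdk2, -0.46 to 0.17 for Ccnd2, -0.20 to 0.23 for Cdk6, -0.36 to 0.0461 for Ccnd3 and -0.26 to 0.44 for Cdkn1b. The domains gave -0.0904 to 0.36 for Cdk4, -0.44 to 0.37 for Cdkn1a, -0.96 to 1.77 for Cdkn2a, -0.38 to 0.32 for Cdkn1b, -0.11 to 0.39 for E2f3 and -0.30 to 0.00204 for Ccnd3. No paired analysis was possible because the columns of the tables carry no replicate numbers, and no label ties a luminal to a basal-like capture of 1 lesion. The methods give a target depth, but the reads behind each library are not known, so no limit from depth can be given.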

Other observations

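Rbl1 (p107), a pocket protein related to Rb1, and E2f3, an activator E2F, belong to the 10 fixed pathway genes. Rbl1 had log2 fold changes of 0.26 in the sorted mutants, -0.75 in luminal tumors, -0.89 in the luminal domain and 0.83 in the basal-like domain, and those of E2f3 were -0.29, -1.00, -0.47 and 0.11. None was called by limma, the adjusted p lying between 0.369 (Rbl1, luminal domain) and 0.990 (E2f3, domains). Rbl1 was higher in every basal-like than in every luminal domain, beside 10.8% of all genes without overlap. E2f3 was lower in every luminal than in every basal tumor, beside 21.5% of all genes without overlap. Mcm2, a subunit of the replicative helicase, had a log2 fold change of -2.21 in the luminal domain (limma adjusted p = 0.0819).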
